A study of Mus musculus with 25 samples.

Results

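The 10 Kupffer cell marker genes Clec4f, Vsig4, Timd4, Cd5l, Marco, C1qa, C1qb, C1qc, Adgre1 and Csf1r were followed through 25 liver libraries. They were chosen by name from the 24537 genes of the count table, and all 10 were present and passed the filter on low counts that left 14133 genes to test. The livers came from male C57BL6/J mice aged 24 months, in 4 groups of libraries. These were a Rosa26 knockout on control diet (Control_Rosa26KO, n = 6), the same genotype on high-fat diet (HFD_Rosa26KO, n = 6), a p53 knockout on control diet (Control_p53KO, n = 6) and the p53 knockout on high-fat diet (HFD_p53KO, n = 7). The Rosa26 locus is commonly used as a neutral site, and by the labels no group was unmodified. The labels do not state how either knockout was made, in which cells, or for how long the diets were given. The labels also do not say that each library came from a separate animal, so p-values measure the spread between these libraries. Libraries are named below by group and replicate number.

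Kupffer cells are the resident macrophages of the liver. They sit in the sinusoids, clear particles, bacteria and dying cells from portal blood, and arise largely from fetal precursors that renew themselves. When they are lost, monocytes from the blood can enter the niche and take on most of their genes, with Timd4 gained slowly, which is why Timd4 is used as a marker of long-resident cells. Clec4f, a lectin that binds galactose, is close to specific for Kupffer cells in the mouse, whereas C1q, Adgre1 and Csf1r are shared with other macrophages. Fatty liver disease is known to replace part of the resident population by monocyte-derived cells. In whole liver RNA, fewer Kupffer cells and less RNA of a gene per Kupffer cell cannot be told apart.

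Total counts per library ran from 16324283 to 21501281. Trp53, the targeted gene, lay at 36.8 ± 4.80 CPM (SD, n = 6) in Control_Rosa26KO, 37.1 ± 4.56 (n = 6) in HFD_Rosa26KO, 24.1 ± 6.89 (n = 6) in Control_p53KO and 26.0 ± 4.47 (n = 7) in HFD_p53KO. Trp53 transcript thus remained in both p53KO groups, with a log2 fold change against Rosa26KO of -0.61 (SE 0.15, edgeR adjusted p = 0.453) on control diet and -0.51 (SE 0.14, edgeR adjusted p = 0.9998) on high-fat diet, so it did not pass the test across all genes in either. CPM are counts scaled to a common library total after TMM correction. Control_p53KO 3 stood apart from the other libraries. Of the 14133 tested genes 408 (2.89%) were at least 4 times the median of the other 5 libraries of that group there, and 7 of the 10 members were among them. Library Control_Rosa26KO 5 was the lowest of all 25 for 9 of the 10 members. Where a result below is said to rest on Control_p53KO 3, values without it are given. Some other results are given only with it. Among these are the medians of T and NK cell and neutrophil markers, the members' median for genotype averaged over diets, and Lyz2.

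The members covered a wide range of abundance. Scaled to the exon length of the gene, the mean over the 25 libraries was 137 ± 116 CPM per kb (SD) for C1qa, 103 ± 80.4 for C1qb, 102 ± 42.4 for Cd5l and 94.98 ± 71.9 for C1qc. These were followed by Clec4f at 58.5 ± 53.3, Vsig4 at 51.2 ± 65.0 and Csf1r at 28.2 ± 21.6 CPM per kb. Adgre1 was at 13.7 ± 8.92, Marco at 6.72 ± 5.78 and Timd4 at 2.73 ± 2.02 CPM per kb. The spread of each gene over libraries was wide and shared between genes, so neighbours were compared within each library. C1qa lay above C1qb and above C1qc in 25 of 25 libraries and C1qb above C1qc in 22. C1qb lay above Cd5l in only 8 of 25, although its mean was higher, and Cd5l above C1qc in 21. Clec4f lay above Vsig4 in 23 of 25 and Adgre1 above Marco in 20. Without Control_p53KO 3 the means were 115 ± 37.7 for C1qa, 99.0 ± 40.7 for Cd5l, 88.6 ± 31.9 for C1qb and 81.7 ± 28.4 for C1qc, and Cd5l moved ahead of C1qb. The raw counts behind these values ran from 36 to 361 for Timd4 and from 3 to 826 for Marco, so the lowest Marco values carry a large counting error. The other 8 members had at least 107 counts in every library.

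Among the surface receptors, Clec4f was high in Control_p53KO 3, and its values otherwise overlapped across the groups. It ran from 49.6 through a median of 111 to 239 CPM in Control_Rosa26KO and from 117 through 144 to 237 CPM in HFD_Rosa26KO. In Control_p53KO it ran from 93.1 through 118 to 733 CPM, and in HFD_p53KO from 62.0 through 76.0 to 122 CPM. The value of 733 CPM belonged to Control_p53KO 3, and the next highest library of that group was at 143 CPM. Vsig4, the complement receptor CRIg that captures C3b-coated particles, had the same shape. Its lowest, median and highest values were 27.4, 58.3 and 105 CPM in Control_Rosa26KO and 48.2, 56.2 and 119 CPM in HFD_Rosa26KO. In Control_p53KO they were 39.6, 60.4 and 507 CPM, and in HFD_p53KO 27.7, 34.4 and 66.1 CPM. For both genes the libraries of HFD_p53KO lay low, and their range overlapped that of every other group.

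Timd4 and Marco did not follow Clec4f in Control_p53KO 3. Timd4 encodes a receptor for phosphatidylserine on dying cells. Its lowest, median and highest values were 2.20, 6.48 and 15.97 CPM in Control_Rosa26KO, 1.67, 2.81 and 18.8 in HFD_Rosa26KO, 3.76, 6.38 and 10.2 in Control_p53KO and 2.27, 2.88 and 9.34 in HFD_p53KO. In Control_p53KO 3 Timd4 was at 4.93 CPM, 0.74 times the median of the other 5 libraries of its group, where Clec4f was at 6.88 times its median. Marco encodes a scavenger receptor with a collagen-like stalk. It ran from 0.18 through 15.5 to 40.1 CPM in Control_Rosa26KO, from 2.80 through 7.43 to 43.0 in HFD_Rosa26KO, from 0.74 through 12.99 to 20.6 in Control_p53KO and from 8.21 through 9.46 to 17.7 in HFD_p53KO. Its lowest values were 3 counts in Control_Rosa26KO 5 and 16 counts in Control_p53KO 3. HFD_Rosa26KO 6 was the highest of all 25 libraries for both Timd4 and Marco.

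Cd5l was the 1 member whose libraries did not overlap between diets, in Rosa26KO and not in p53KO. It encodes a secreted protein of the scavenger receptor family that circulates bound to immunoglobulin M and is made by tissue macrophages. In Control_Rosa26KO the 6 libraries were at 46.2, 131, 149, 150, 152 and 182 CPM. In HFD_Rosa26KO they were at 212, 260, 277, 285, 306 and 360.4 CPM, so every high-fat library lay above every control library. The same held for 1.2% of all tested genes. In Control_p53KO it ran from 117 through 166 to 351 CPM and in HFD_p53KO from 85.4 through 208 to 357 CPM, and these ranges overlapped.

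The 3 chains of C1q, the protein that opens the classical complement cascade, are made largely by macrophages and were measured at similar levels. C1qb had a lowest, median and highest value of 30.9, 74.3 and 114 CPM in Control_Rosa26KO and 104, 121 and 156 CPM in HFD_Rosa26KO. In Control_p53KO these were 55.1, 79.8 and 499.6 CPM, and in HFD_p53KO 48.2, 96.9 and 157 CPM. C1qa spanned 45.5 to 692 CPM and C1qc 32.01 to 497 CPM over the 25 libraries, with the highest value of each in Control_p53KO 3. Adgre1, which encodes the macrophage surface protein F4/80, spanned 6.52 to 140.3 CPM, and Csf1r, the receptor for the macrophage growth factor CSF1, spanned 33.5 to 600.3 CPM. The lowest library of C1qa, C1qb, C1qc, Adgre1 and Csf1r was Control_Rosa26KO 5 and the highest was Control_p53KO 3.

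**Figure D1:**
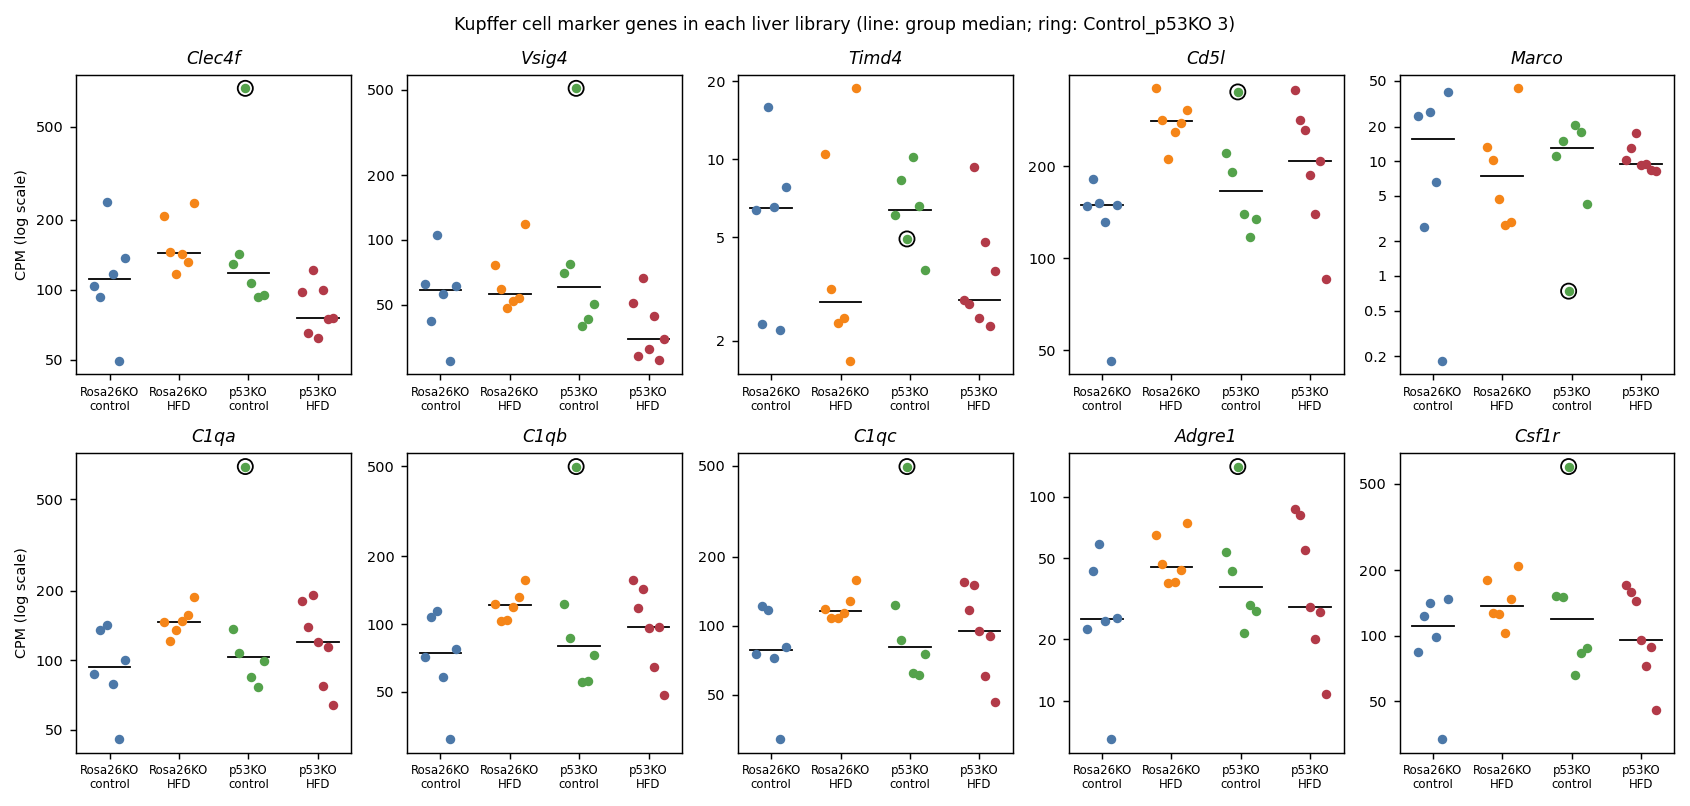
CPM of each of the 10 genes on a log axis, 1 point per library, with the 4 groups on the horizontal axis, the group median as a line and a ring around Control_p53KO 3. Clec4f, Vsig4, the 3 C1q chains, Adgre1 and Csf1r are highest in the ringed library, Timd4 and Marco are not, and Cd5l separates the 2 Rosa26KO groups (46.2 to 182 against 212 to 360.4 CPM).

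Summed over the 10 members, the level was 734 ± 278 CPM in Control_Rosa26KO (SD, n = 6), 1128 ± 231 in HFD_Rosa26KO (n = 6), 1300.2 ± 1347 in Control_p53KO (n = 6) and 846 ± 310 in HFD_p53KO (n = 7). The sum was 4025 CPM in Control_p53KO 3, and 755 ± 201 CPM over the other 5 libraries of that group. The 4 groups otherwise overlapped in this sum, which ran from 274 CPM in Control_Rosa26KO 5 to 1509 CPM in HFD_Rosa26KO 6. In Control_p53KO 3 genes of other cells were high as well. Summed T and NK cell markers were at 182 CPM there, against at most 58.0 CPM in any other library. Of the 9 neutrophil markers 7 (S100a8, S100a9, Ngp, Camp, Ltf, Retnlg and Mmp8) were the third highest of all 25 libraries there, at 3.95 to 32.1 times the median of the other 5 libraries of the group. The sum of the 9 was 152 CPM, the rank 12 of 25, of which Lcn2 gave 83.9 CPM. General macrophage genes summed to 3945 CPM, against at most 1951 CPM in any other library. Albumin (Alb) was at 57060 CPM, against a median of 106878 CPM in the other 5 libraries. The part of these differences in the members' values was not tested.

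The comparison of p53KO with Rosa26KO on control diet asks whether the markers differ with the p53 genotype, as labelled, without a dietary load. By edgeR's quasi-likelihood test with Benjamini-Hochberg adjustment over all tested genes 0 of 10 members passed the threshold of 0.05, where 0% of all tested genes passed. At an unadjusted p under 0.05 there were 3 members and 1408 genes. DESeq2, and limma voom with sample quality weights (limma voom below), also called 0 members, with 1 and 0 genes called. The median log2 fold change of the members was 0.83, with 8 of 10 above 0, beside a median of 0.0096 for all tested genes. The highest values were those of Vsig4 (1.16, SE 0.51, adjusted p = 0.473), C1qa (1.02, SE 0.44, adjusted p = 0.473) and C1qb (0.96, SE 0.44, adjusted p = 0.478), all by edgeR. They rested on Control_p53KO 3. Without it the median log2 fold change was 0.03, with 6 of 10 above 0, and the value was -0.07 for Vsig4, 0.04 for C1qa and 0.04 for C1qb. In the fit with all libraries T and NK cell markers had a median of 1.09 with 10 of 10 above 0, and neutrophil markers one of 3.28 with 9 of 9 above 0. Their part in the members' values was not tested.

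On HFD the same comparison also called 0 of 10 members by edgeR, where 0% of all tested genes passed. There were 1 member and 509 genes at an unadjusted p under 0.05, and DESeq2 and limma voom called 0 members beside 1 and 0 genes. All 10 log2 fold changes were below 0, with a median of -0.32 against 0.0086 for all tested genes. The library names are numbered without a gap, and the labels name no runs. The names were cut here into 3 runs where the order of the groups starts again, each with libraries of all 4 groups. Taken over the 10 members the direction was not shared by these runs. The difference in mean log2 CPM was above 0 for 5 of 10 members in the first run (median 0.058) and for 7 in the second (median 0.070). In the third run it was above 0 for 0 members (median -1.10). Clec4f was below 0 in all 3 runs, at -1.12, -0.57 and -1.09. Vsig4 (-0.81, -0.14 and -1.19) and Cd5l (-0.011, -0.079 and -1.10) were below 0 in all 3 as well. Each of the other members was above 0 in some run. Neutrophil markers had a median of -1.80 in this comparison, with 1 of 9 above 0, and their part was not tested. The 3 lowest members were Clec4f (-0.94, SE 0.42), Vsig4 (-0.75, SE 0.48) and Timd4 (-0.68, SE 0.53), each with an edgeR adjusted p of 0.9998. Of the other surface receptors Csf1r was at -0.42, Marco at -0.23 and Adgre1, the highest of the 10 members, at -0.20. Clec4f was at 163 ± 47.8 CPM in HFD_Rosa26KO (SD, n = 6) and 85.3 ± 21.8 CPM in HFD_p53KO (n = 7). Over 35 other settings of the fit its log2 fold change ran from -1.04 to -0.81 and its adjusted p from 0.389 to 1, and 12 of these settings left out a library of neither group. For Timd4 and Marco the sign rested on HFD_Rosa26KO 6, without which they were at 0.00052 and 0.68. Averaged over both diets 0 of 10 members passed in edgeR, where 0% of all genes passed. There were 0 members and 573 genes at an unadjusted p under 0.05, DESeq2 and limma voom called 0 members beside 7 and 2 genes, and the members' median was 0.21.

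The comparison of HFD with control diet within Rosa26KO asks how the markers differ with diet in the genotype without the p53 knockout. By edgeR 0 of 10 members passed, where 1.51% of all tested genes did. At an unadjusted p under 0.05 there were 1 member and 2467 genes. The median log2 fold change of the members was 0.53, with 8 of 10 above 0, beside 0.0033 for all tested genes. Without Control_Rosa26KO 5 the value was 0.24 for Clec4f, 0.89 for Cd5l, 0.45 for C1qa, 0.52 for C1qb and 0.39 for C1qc. It was 0.54 for Adgre1 and 0.32 for Csf1r. For each of these members that was the lowest value with any 1 library left out. Neutrophil markers had a median of 2.29 here, with 9 of 9 above 0, and their part in the members' values was not tested. Cd5l was at 135 ± 46.6 CPM on control diet (SD, n = 6) and 283 ± 49.2 CPM on HFD (n = 6), a log2 fold change of 1.07 (SE 0.32, 2.10-fold) with an edgeR adjusted p of 0.0760. It was the 1 member of 10 whose libraries did not overlap between the groups, and 1.2% of all tested genes lay higher without overlap in this comparison. Over 35 other settings its log2 fold change ran from 0.89 to 1.17 and its adjusted p from 0.00292 to 0.164, under 0.05 in 7. In 13 of these settings the library left out was a p53KO one, which can move the p through the shared spread but not the fold change beyond rounding, and 2 of the 7 calls were among them (adjusted p = 0.0497 without Control_p53KO 3 and 0.0450 without HFD_p53KO 7). The other 22 settings gave 5 calls. DESeq2 called Cd5l (adjusted p = 0.0220) beside 615 genes in all. The limma voom fit called Cd5l (adjusted p = 0.00292), C1qb (0.0215) and C1qa (0.0312) beside 3038 genes in all.

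In the same comparison the C1q chains, Adgre1 and Csf1r had log2 fold changes between 0.50 and 0.75, with edgeR adjusted p between 0.428 and 0.579. Clec4f was at 0.41 (SE 0.43) and Vsig4 at 0.21 (SE 0.50). Timd4 was at -0.08 (SE 0.54) and Marco at -0.39 (SE 0.77). The same cut of the library names into 3 runs was used here, each with libraries of all 4 groups. Within these runs the difference in mean log2 CPM of Cd5l was 0.96, 0.73 and 1.81, and that of Clec4f was 0.82, -0.38 and 1.10.

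Within p53KO 0 of 10 members passed for HFD against control diet by edgeR, where 2.87% of all tested genes passed. There were 2 members and 2661 genes at an unadjusted p under 0.05. The median log2 fold change was -0.61, with 1 of 10 members above 0, beside -0.024 for all tested genes. T and NK cell markers had a median of -0.76, with 0 of 10 above 0, and neutrophil markers one of -2.76, with 1 of 9 above 0, and their part was not tested. Vsig4 had a log2 fold change of -1.70 (SE 0.49, edgeR adjusted p = 0.0573) and Clec4f one of -1.34 (SE 0.42, edgeR adjusted p = 0.0754). DESeq2 called Clec4f (adjusted p = 0.0227) beside 907 genes in all, and limma voom called 0 members beside 2189 genes. Over 35 other settings the adjusted p ran from 0.0239 to 0.474 for Vsig4 and from 0.0227 to 0.493 for Clec4f, and 12 of these settings left out a Rosa26KO library, which belongs to neither group.

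These values again rested on Control_p53KO 3. Without it edgeR called 0 of 10 members beside 3.25% of all genes. The log2 fold change was then -0.47 for Vsig4 (adjusted p = 0.389) and -0.41 for Clec4f (adjusted p = 0.421). C1qa, C1qb, C1qc, Adgre1 and Csf1r turned from between -0.78 and -0.25 to between 0.04 and 0.39, and 6 of 10 members lay above 0. Leaving out Control_p53KO 4 in its place brought Vsig4 (-1.88, adjusted p = 0.0239) and Clec4f (-1.48, adjusted p = 0.0434) under the threshold. Cd5l, at 193 ± 86.9 CPM on control diet (SD, n = 6) and 218 ± 91.7 CPM on HFD (n = 7), had a log2 fold change of 0.18 (SE 0.30) with all libraries and 0.44 without Control_p53KO 3.

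**Figure D2:**
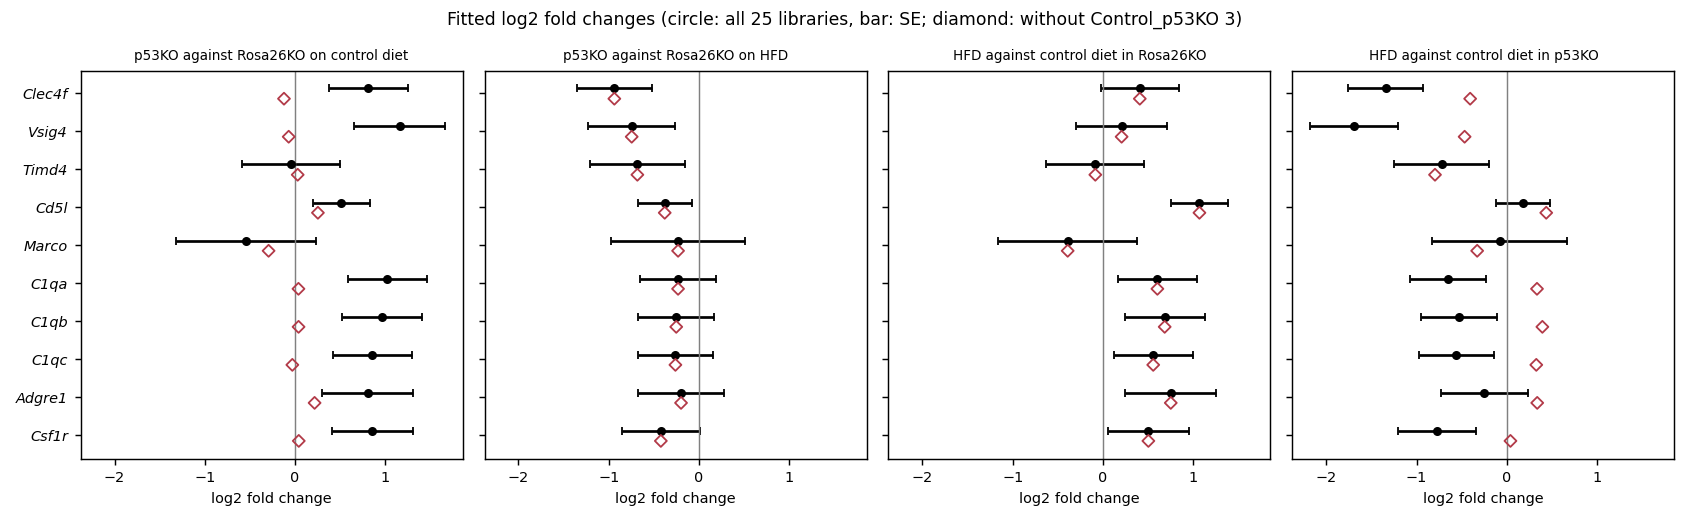
Fitted log2 fold changes of the 10 genes in 4 comparisons, as circles with SE bars for all 25 libraries and as open diamonds without Control_p53KO 3. Leaving that library out moves Vsig4 from 1.16 to -0.07 between genotypes on control diet and from -1.70 to -0.47 between diets in p53KO. The library belongs to neither group of the other 2 comparisons, whose values it cannot move beyond rounding.

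Averaged over both genotypes, 0 of 10 members passed for HFD against control diet by edgeR, where 9.71% of all tested genes did. There were 2 members and 3428 genes at an unadjusted p under 0.05. Cd5l had a log2 fold change of 0.62 (SE 0.22, edgeR adjusted p = 0.0733), and its adjusted p ran from 0.00138 to 0.126 over 34 other settings, under 0.05 in 9. DESeq2 called Cd5l beside 1800 genes in all. The limma voom fit called Cd5l, C1qa, C1qb and C1qc beside 5010 genes in all, of the 14133 tested. Without Control_p53KO 3 edgeR called Cd5l (0.75, adjusted p = 0.0193) beside 13.3% of all genes. Without Control_Rosa26KO 2 (adjusted p = 0.0499984) or HFD_p53KO 7 (adjusted p = 0.0247) it was called as well. The difference between the diet effects in p53KO and in Rosa26KO gave 0 of 10 members by edgeR, beside 0% of all genes. There 3 members and 1221 genes had an unadjusted p under 0.05, and DESeq2 and limma voom called 0 members beside 5 and 0 genes. Its lowest values were those of Vsig4 (-1.90, SE 0.70) and Clec4f (-1.75, SE 0.60), both with an edgeR adjusted p of 0.560. Without Control_p53KO 3 they were -0.67 and -0.81.

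How the markers varied together among libraries of the same group was measured as correlations of log2 CPM after the group means were taken off. Of the 45 pairs of members 31 passed a permutation test within groups with 100000 resamples and adjustment over the 45 pairs, by Pearson's r and as many by Spearman's rho. With the 2 libraries farthest from the median left out 28 passed. The tightest pairs were the C1q chains. C1qb and C1qc reached r = 0.995 and rho = 0.984, each with a permutation p of 1e-05, the smallest that 100000 resamples can give, and r = 0.987 without the 2 farthest libraries. Cd5l and Adgre1 had r = 0.94 and rho = 0.95 (permutation p = 1e-05 for each), and r = 0.89 without the 2 farthest.

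Clec4f and Vsig4 formed another close pair, with r = 0.97 and rho = 0.96 (permutation p = 1e-05 for each) and r = 0.91 without the 2 farthest libraries. Timd4 and Marco, both of low abundance, had r = 0.74 and rho = 0.83 (permutation p = 1e-05 for each), and r = 0.67 without the 2 farthest. Clec4f with Timd4 had r = 0.47 (permutation p = 0.00475) and rho = 0.65 (permutation p = 0.00049), and r = 0.83 without the 2 farthest, which were Control_p53KO 3 and Control_Rosa26KO 5. Marco with Clec4f gave r = 0.11 (permutation p = 0.655) and rho = 0.37 (permutation p = 0.0878), and r = 0.59 without the same libraries.

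The pattern differed with and without Control_p53KO 3. With all 25 libraries the 6 pairs among Clec4f, Vsig4, Timd4 and Marco ran from r = 0.04 to 0.97, with a median of 0.44. Without Control_p53KO 3 they ran from 0.69 to 0.93, with a median of 0.79. The 15 pairs among Cd5l, the C1q chains, Adgre1 and Csf1r ran from 0.82 to 0.995 with it and from 0.89 to 0.99 without it. The 24 pairs between these sets had a median of 0.44 with it and 0.54 without it, and none exceeded 0.67 without it. The division into these sets was made after the values were seen and is a description, to which no test was applied. The points share libraries, so the pairs are not independent.

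**Figure D3:**
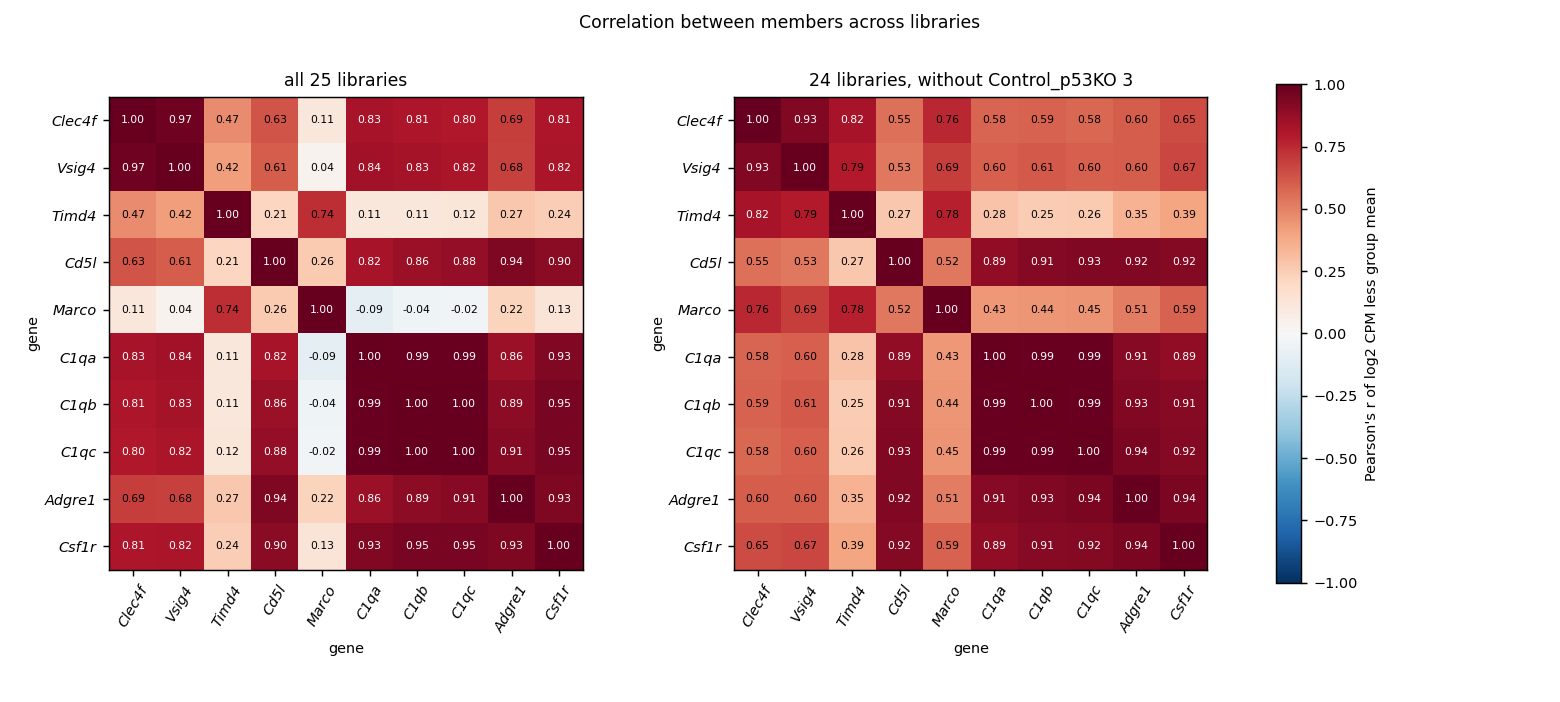
Pearson's r between each pair of the 10 genes over libraries after removal of the group means, with all 25 libraries on the left and without Control_p53KO 3 on the right. Marco with Clec4f moves from 0.11 to 0.76 and Timd4 with Clec4f from 0.47 to 0.82, while the 3 pairs of C1q chains run from 0.990 to 0.995 on the left and from 0.985 to 0.990 on the right.

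The genes that move together lie in different parts of the genome, apart from the C1q chains. On GRCm38 with GENCODE M21 annotation, C1qb (chr4:136880129-136886187), C1qc (chr4:136889804-136893065) and C1qa (chr4:136895917-136898803) stand next to each other on the minus strand of chromosome 4. Clec4f lies at chr6:83644542-83656187, Vsig4 at chrX:96247203-96293438 and Marco at chr1:120474538-120505024, all on the minus strand. Timd4 (chr11:46810800-46844332), Cd5l (chr3:87357881-87371073), Adgre1 (chr17:57358691-57483527) and Csf1r lie on the plus strand. All 10 are protein-coding, and of these only Csf1r shares exonic bases with another gene, Hmgxb3. No source used here says whether the counting kept strands apart.

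The 250 bases before the transcription start were read from RefSeq (GRCm38.p6), where 7 of the 10 members were matched. The letters GAGGAA, the core of the motif of the macrophage factor PU.1, were searched on both strands, together with TGGGAA, bound by the Notch effector RBPJ, and with the E-box CAGCTG for comparison. GAGGAA stood in 5 of the 7 windows (C1qb, C1qc, Cd5l, Marco and Vsig4) and in 23.3% of all 32851 windows of this length. TGGGAA stood in 2 of the 7 (Clec4f and Marco) and in 21.6% of all windows, and CAGCTG in 0 of the 7 and in 13.001%. A match is a description of letters and not a site. Windows of 5 members are printed because they cover both sets that varied together, 5′ to 3′ along the gene, with GAGGAA or its reverse complement TTCCTC in capitals. C1qb (chr4:136886201-136886450, minus strand) and Cd5l (chr3:87357631-87357880, plus strand) stand for the first set, and Vsig4 (chrX:96293439-96293688, minus strand), Marco (chr1:120505025-120505274, minus strand) and Timd4 (chr11:46810549-46810798, plus strand) for the second.
C1qb: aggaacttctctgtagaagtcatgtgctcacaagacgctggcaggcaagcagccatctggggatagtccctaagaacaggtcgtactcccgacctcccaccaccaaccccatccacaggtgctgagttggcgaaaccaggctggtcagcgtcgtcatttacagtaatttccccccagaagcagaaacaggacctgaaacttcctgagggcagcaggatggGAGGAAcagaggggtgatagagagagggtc
Cd5l: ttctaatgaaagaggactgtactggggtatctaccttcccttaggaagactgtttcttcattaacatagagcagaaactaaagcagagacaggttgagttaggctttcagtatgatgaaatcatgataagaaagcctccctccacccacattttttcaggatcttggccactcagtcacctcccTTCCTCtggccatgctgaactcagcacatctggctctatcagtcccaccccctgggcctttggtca
Vsig4: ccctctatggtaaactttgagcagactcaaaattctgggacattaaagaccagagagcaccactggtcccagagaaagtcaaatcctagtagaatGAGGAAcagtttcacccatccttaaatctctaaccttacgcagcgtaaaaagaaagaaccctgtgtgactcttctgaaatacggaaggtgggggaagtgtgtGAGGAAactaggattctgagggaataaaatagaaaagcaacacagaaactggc
Marco: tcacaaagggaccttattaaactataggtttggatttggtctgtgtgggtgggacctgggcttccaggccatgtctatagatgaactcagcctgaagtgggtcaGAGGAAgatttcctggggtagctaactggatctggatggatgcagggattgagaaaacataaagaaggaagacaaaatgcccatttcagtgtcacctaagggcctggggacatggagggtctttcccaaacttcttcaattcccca
Timd4: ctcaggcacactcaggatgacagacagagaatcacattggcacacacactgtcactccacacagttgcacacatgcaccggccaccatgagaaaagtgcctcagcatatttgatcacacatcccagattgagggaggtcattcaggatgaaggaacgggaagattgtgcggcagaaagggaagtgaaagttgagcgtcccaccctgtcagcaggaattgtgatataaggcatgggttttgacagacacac
In C1qb the motif begins 30 bases before the start and in Cd5l 66 bases before it, on the opposite strand. Vsig4 has it at 155 and at 53 bases and Marco at 146 bases before the start. The Timd4 window holds none, which says only that these letters are not in this window.

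Given as plain percentages, ratios between members within a library do not depend on how libraries are scaled. The ratios tested have 0.5 CPM added to each gene and are not fully free of the scaling. Timd4 as a percentage of Clec4f had a median of 5.68% in Control_Rosa26KO (range 2.49 to 6.69), 2.09% in HFD_Rosa26KO (1.28 to 7.94), 5.30% in Control_p53KO (0.67 to 9.56) and 4.24% in HFD_p53KO (2.94 to 7.68). In HFD_Rosa26KO 4 of 6 libraries lay below every Control_Rosa26KO library, and the other 2, HFD_Rosa26KO 1 and HFD_Rosa26KO 6, lay within or above that group's range. On a log2 scale with 0.5 CPM added to each gene the difference was -0.82 (two-sided exact permutation p = 0.0758, adjusted over 12 ratio tests 0.227), so the groups did not differ beyond the spread of the libraries. The smallest p that 6 against 6 libraries allow is 0.00217. Between genotypes on HFD the difference was 0.67 (exact p = 0.114, adjusted 0.274), on control diet -0.29 (exact p = 0.779, adjusted 0.850) and between diets in p53KO 0.14 (exact p = 0.858, adjusted 0.858). The last 2 changed sign without Control_p53KO 3, to 0.23 and -0.38.

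The chains of C1q kept nearly fixed proportions. C1qc was between 93.5% and 124% of C1qb in the 25 libraries, and C1qa between 112% and 154%. C1qc relative to C1qb had a median of 105% in Control_Rosa26KO and 99.7% in HFD_Rosa26KO. That log2 difference was -0.13, the lowest p of the 12 ratio tests (exact permutation p = 0.0130, adjusted 0.156). In p53KO the corresponding difference was -0.08 (exact p = 0.0443, adjusted 0.177). For C1qa relative to C1qb the diet difference was -0.10 in Rosa26KO (exact p = 0.0390, adjusted 0.177) and -0.10 in p53KO (exact p = 0.168, adjusted 0.336). None of the 12 ratio tests passed 0.05 after adjustment.

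Further ratios to Clec4f were looked at after their values had been seen and were not tested. Cd5l was at a median of 111% of Clec4f in Control_Rosa26KO (63.8 to 196%), 182% in HFD_Rosa26KO (129 to 211%), 133% in Control_p53KO (47.9 to 172%) and 279% in HFD_p53KO (112 to 434.5%). C1qa was at medians of 78.5%, 93.2%, 88.2% and 158% of Clec4f in the same order of groups. Adgre1 was at 21.3%, 31.7%, 29.7% and 44.96%, and Csf1r at 82.8%, 87.7%, 91.1% and 119%. Each of these medians was highest in HFD_p53KO, where the libraries were also widest apart, and the ranges of all groups overlapped. Vsig4 stayed between 36.5% and 69.2% of Clec4f in every library.

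**Figure D4:**
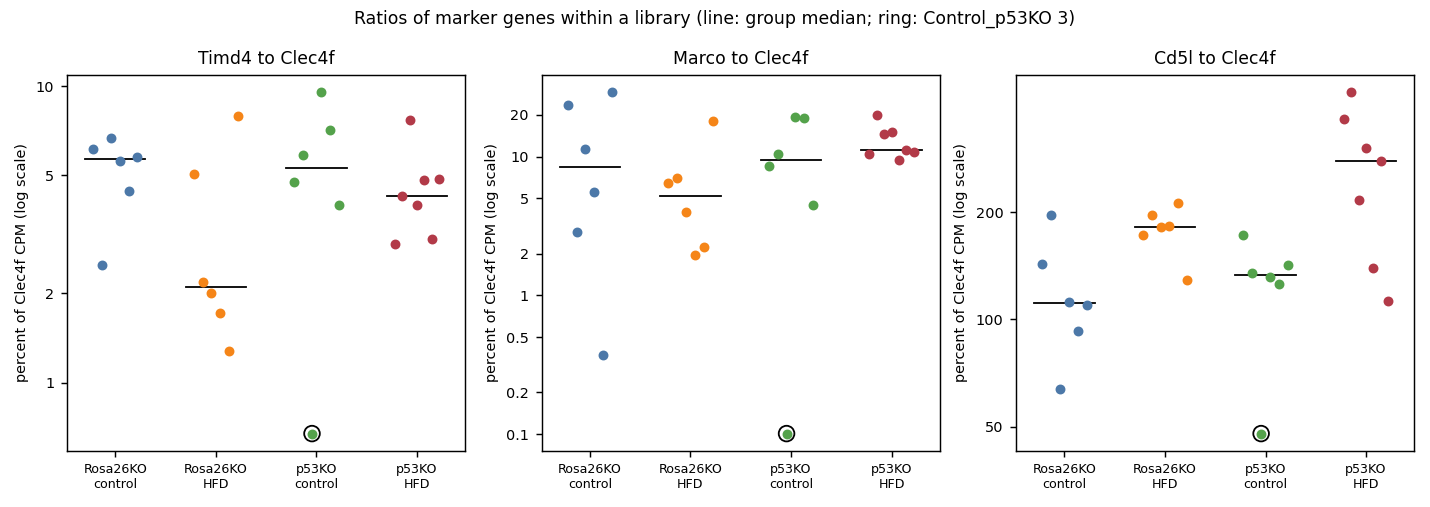
Timd4, Marco and Cd5l as a percentage of Clec4f CPM in each library, on log axes, with the group median as a line and a ring around Control_p53KO 3. Timd4 has its lowest median in HFD_Rosa26KO (2.09%), Cd5l its highest in HFD_p53KO (279%), and the ringed library is the lowest of all 25 in each panel.

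Other genes of the cell type and of its surroundings were read from lists. Of 16 further genes used for Kupffer cells 1 fell and 0 rose with HFD averaged over both genotypes by edgeR, beside 9.71% of all genes. Cd163, the receptor for haptoglobin-haemoglobin complexes, fell by 2.57 on the log2 scale (SE 0.67, adjusted p = 0.0165). Its medians were 5.91 and 5.24 CPM on control diet in Rosa26KO and p53KO, and 2.87 and 2.18 CPM on HFD. The highest libraries on control diet were Control_p53KO 3 at 76.9 CPM and Control_Rosa26KO 6 at 64.8 CPM, and without Control_p53KO 3 Cd163 was not called. In that fit 4 of the 16 rose instead, Clec1b, Spic, Siglec1 and Hmox1, beside 13.3% of all genes called.

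Of 14 general macrophage genes 0 passed in any of the 7 comparisons by edgeR. Their median log2 fold change for HFD was 0.62 in Rosa26KO, with 14 of 14 above 0, and -0.18 in p53KO, with 3 of 14 above 0. Without Control_p53KO 3 the latter was 0.49, with 14 of 14 above 0, and 3 of 14 (Fcgr1, Spi1 and Fcer1g) passed for HFD averaged over both genotypes, beside 13.3% of all genes. Lyz2 (lysozyme) was at 0.04 (SE 0.47) in Rosa26KO and -0.90 (SE 0.45) in p53KO. Of 14 genes of monocytes and of recruited or lipid-associated macrophages 1 fell, Fabp5, a fatty acid binding protein. It fell by 2.51 (SE 0.42, adjusted p = 0.00354) in Rosa26KO and by 2.77 (SE 0.40, adjusted p = 0.00139) in p53KO on the log2 scale by edgeR, where 1.51% and 2.87% of all tested genes were called. The list's median was 0.70 and 0.37 in these comparisons, so its 1 call ran against its median. Without Control_p53KO 3 Lgals3 and Clec7a rose as well with HFD averaged over both genotypes, beside 13.3% of all genes.

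The signals around the cells gave few calls. Of 7 niche signals (ligands and cytokines that stellate, endothelial and other cells give to Kupffer cells) Bmp2 fell with HFD in p53KO (by 0.70, SE 0.18, adjusted p = 0.0388 by edgeR), beside 2.87% of all genes, and the list's median was -0.26. Bmp2 fell averaged over both genotypes as well (by 0.56, SE 0.13, adjusted p = 0.00827 by edgeR, beside 9.71% of all genes). The 5 ligands of the CSF1 receptor and growth factor receptors had 0 calls in all 7 comparisons. Csf1 was at 0.14 (SE 0.21) with HFD in Rosa26KO and -0.15 (SE 0.21) in p53KO. The 7 complement partners of C1q had 0 calls, with medians of -0.04 and 0.07. Of 9 scavenger and dying-cell receptors and bridging proteins Cd36, the fatty acid translocase, rose with HFD averaged over both genotypes (1.05, SE 0.24, adjusted p = 0.00778 by edgeR), beside 9.71% of all genes.

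Markers of other liver cells gave the following calls by edgeR for HFD averaged over both genotypes, where 9.71% of all tested genes were called. Of 8 hepatocyte markers 7 were tested and 5 fell (Cps1, Cyp3a11, Apoa1, Alb and, named after its value was seen and with near-identical copies, Serpina1a), with a list median of -0.63. Of 8 sinusoidal endothelial markers Clec4g fell (by 0.58, SE 0.14, adjusted p = 0.00816) and of 6 stellate cell markers Reln fell (by 0.57, SE 0.17, adjusted p = 0.0380), a call lost without Control_p53KO 3. Of 5 erythroid markers Hbb-bt and Hba-a1, both with near-identical copies, rose by 1.29 and 1.15. The 9 neutrophil, 10 T and NK cell, 6 B and plasma cell, 6 dendritic cell and 5 biliary markers had 0 calls in all 7 comparisons, though Siglech of the dendritic list was called without Control_p53KO 3, beside 13.3% of all genes. Neutrophil markers summed to between 12.4 and 4495 CPM over the libraries, and of the highest sum Lcn2 alone gave 3952 CPM. Group medians of the sum were 40.6 and 88.3 CPM on control diet (Rosa26KO and p53KO) and 160 and 189.6 CPM on HFD. Camp, Ltf, Ngp and Mmp8 were at 0 in at least 1 library. The part of these cells in the members' values was not tested.

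Genes whose pattern over the 25 libraries was most like the members' mean standardised log2 CPM were named by their Pearson's r, as a description with no test. The first was Epb41l3 at r = 0.94, followed by Pira2, Pira1, Cfp, Ptprm, Adgre4, Serpinb6a, Clec4n, Fpr1 and Btk, the last at 0.92. Pira1 and Pira2 are closely related paralogs whose reads may be shared. Cfp encodes properdin, which stabilises the alternative complement convertase, and Btk a kinase of myeloid and B cells. Without Control_p53KO 3 the r of Epb41l3 was 0.92 and that of Cfp 0.94. For single members the most alike gene outside the 10 was Fam167a for Clec4f (r = 0.94) and for Vsig4 (0.93), Hhip for Timd4 (0.77), Emilin2 for Marco (0.66) and Sdc3 for Cd5l (0.94). It was Cyba for C1qa (0.97), Tyrobp for C1qb and C1qc (0.98 for each), Tbxas1 for Adgre1 (0.95) and Adgre5 for Csf1r (0.96). Cyba is a subunit of the phagocyte oxidase and Tyrobp the adaptor DAP12 of myeloid receptors.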

How the data were processed

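Poly(A) RNA of flash-frozen liver was sequenced in 25 libraries. The authors deposited raw read counts per gene, made with STAR and HOMER on GRCm38/mm10 per the submitters' processing notes. No source used here gives their versions, the gene annotation or the strand setting. All 25 count columns were matched to a library by title and library name. Genes were filtered with filterByExpr (minimum count 10, minimum total 15), which left 14133 of 24537, and 10404 were not tested.

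One edgeR 4.0.16 quasi-likelihood fit with TMM scaling and robust dispersion held all 4 groups. Adjusted p-values are Benjamini-Hochberg over all tested genes, with a threshold of 0.05. CPM use TMM library sizes, and log2 CPM a prior count of 2. Ratios had 0.5 CPM added and two-sided exact permutation tests. Correlations used 100000 permutations within groups. Alternatives were RLE scaling, no filter, DESeq2 1.42.0, non-robust dispersion and a replicate block. Another was limma 3.58.1 voom with sample quality weights, so its libraries did not count equally. The rest were a term for the runs of library names cut here, the compared groups only, other pseudocounts and libraries left out. The fits were tested on simulated data. Analyses ran in R 4.3.3 and Python 3.11.15 with scipy 1.17.1. Libraries of a group differed by at least 11.4 chi-square units per degree of freedom over 66 pairs, so none was counted as a duplicate.

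The members and all gene lists were chosen with earlier results of these data known. The rule for named genes was every member, up to 4 genes of smallest p past the threshold from each list (where none passed, up to 2 of highest mean CPM), the 10 genes most like the members' mean by Pearson's r, and 1 for each member. Other genes, such as those called only without Control_p53KO 3, were named after their values were seen. Exon lengths and positions come from GENCODE M21.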

Additional observations from a re-analysis of the deposited data

Results flagged for a closer look

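Of 52 groups of values checked, 12 held a library whose gap to the nearest other library was large against the range of its group. Chance alone is taken to give about 1 in 20 for a single group. Of the 12 flagged values 8 belonged to Control_p53KO 3. The genes vary together, so the 52 groups are not independent and the 12 cannot be weighed against that rate. In Control_p53KO 3 the highest values were Clec4f at 733 CPM (next library 143), Vsig4 at 507 (77.1), C1qa at 692 (137), C1qb at 499.6 (123), C1qc at 497 (123), Adgre1 at 140.3 (53.6) and Csf1r at 600.3 (153). The log2 ratio of Timd4 to Clec4f was lowest in the same library, at -7.08 against -4.48 for the next. In Control_Rosa26KO 2 that log2 ratio was -5.06, against -4.22 for the next library of its group. Cd5l was lowest in Control_Rosa26KO 5, at 46.2 CPM against 131. Marco was highest in HFD_Rosa26KO 6, at 43.0 CPM against 13.4, and Timd4 in HFD_p53KO 3, at 9.34 CPM against 4.81.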

How the results depend on the processing

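Counts were lowest for Marco and Timd4, whose lowest libraries held 3 and 36. Sign changes numbered 25 for C1qc (at least 525 counts), 17 each for C1qa and Timd4, 11 for Marco and 0 for Cd5l. These numbers cannot be compared between members. HFD averaged over both genotypes was counted only for Clec4f, Vsig4, Cd5l and the C1q chains, and genotype averaged over both diets for no member. For that diet average C1qc was at -0.0025, and 11 of its 25 changes came there with single libraries left out. Each group held only 6 or 7 libraries, and of the single libraries left out Control_p53KO 3 moved the most values. Of 1944 values of single members under other settings 1822 kept their direction and their side of the threshold, 99 changed sign and 23 passed 0.05 only under the alternative. No call could be lost, because the edgeR fit with all libraries called 0 members. The 1822 include fits without a library of neither compared group, which cannot move the fold change beyond rounding. Where a value changed, the cause was not tested. The 3 libraries left out together were chosen from earlier scores of neutrophil genes. Their summed neutrophil markers were 4495, 152 and 851 CPM here. Of the first sum Lcn2 gave 3952 CPM. In the second, Control_p53KO 3, 7 of the 9 markers ranked 3 of 25, and its sum was mostly Lcn2 (83.9 CPM). HFD_p53KO 2, at 3921 CPM, was not in the set. Leaving out Control_p53KO 3 and Control_Rosa26KO 5 together was chosen after seeing the data. Whether equal replicate numbers pair the libraries was not tested. Of 36 same-numbered pairs 17 had a correlation over 0.1 (-0.40 to 0.60), and 9 of 25 libraries correlated best with their own number. No value expected without pairing was computed. Replicate numbers also rise with the runs of library names. With a replicate block edgeR called 549 genes in place of 213 for diet in Rosa26KO, and 785 in place of 405 for diet in p53KO.

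With DESeq2, the calls were 1 gene for genotype on control diet, 1 gene for genotype on HFD and 7 genes for genotype averaged over diets. They were 615 genes and 1 member for diet in Rosa26KO and 907 genes and 1 member for diet in p53KO. For diet averaged over genotypes they were 1800 genes and 1 member, and for the difference between diet effects 5 genes. With limma voom, the calls were 2 genes for genotype averaged over diets, 3038 genes and 3 members for diet in Rosa26KO, 2189 genes for diet in p53KO and 5010 genes and 4 members for diet averaged over genotypes. The log2 fold changes that changed sign were Marco 0.17 for genotype on control diet, then Timd4 0.15 and Marco 0.84 for genotype on HFD, then Marco 0.31, C1qa 0.37, C1qb 0.46, C1qc 0.39, Adgre1 0.26 and Csf1r 0.057 for diet in p53KO, then C1qa 0.55 and C1qc 0.54 for diet averaged over genotypes, then Timd4 0.19 for the difference between diet effects. With the replicate block, the calls were 1 gene for genotype averaged over diets, 549 genes and 1 member for diet in Rosa26KO, 785 genes for diet in p53KO and 2282 genes and 1 member for diet averaged over genotypes. The log2 fold changes that changed sign were Timd4 0.28 and Marco 0.094 for genotype on control diet, then Marco 0.34 for genotype on HFD, then C1qa 0.29 and C1qc 0.30 for diet averaged over genotypes. With the library name run as a term, the calls were 442 genes and 1 member for diet in Rosa26KO, 633 genes for diet in p53KO and 1 member for diet averaged over genotypes. The log2 fold changes that changed sign were Timd4 0.018 for genotype on control diet, then Timd4 0.031 for diet in Rosa26KO, then C1qa 0.12 and C1qc 0.14 for diet averaged over genotypes. With the compared groups only, the calls were 653 genes and 1 member for diet in Rosa26KO and 121 genes for diet in p53KO. With no filter on low counts, the log2 fold changes that changed sign were C1qc 0.0062 for diet averaged over genotypes. Without Control_p53KO 1, Control_p53KO 3 and HFD_Rosa26KO 6, the calls were 1 gene for genotype averaged over diets, 538 genes for diet in Rosa26KO and 2500 genes and 2 members for diet averaged over genotypes. The log2 fold changes that changed sign were Clec4f -0.18, Vsig4 -0.17, Timd4 0.069, C1qa -0.10, C1qb -0.18, C1qc -0.23 and Csf1r -0.12 for genotype on control diet, then Timd4 0.0017 and Marco 0.68 for genotype on HFD, then Vsig4 -0.030 for diet in Rosa26KO, then C1qa 0.47, C1qb 0.61, C1qc 0.52, Adgre1 0.54 and Csf1r 0.19 for diet in p53KO, then C1qa 0.50 and C1qc 0.49 for diet averaged over genotypes, then C1qb 0.0056 and C1qc 0.051 for the difference between diet effects. Without Control_p53KO 3 and Control_Rosa26KO 5, the calls were 1 gene for genotype averaged over diets and 1 member for diet averaged over genotypes. The log2 fold changes that changed sign were Clec4f -0.29, Vsig4 -0.22, C1qa -0.11, C1qb -0.12, C1qc -0.20 and Csf1r -0.14 for genotype on control diet, then C1qa 0.33, C1qb 0.39, C1qc 0.33, Adgre1 0.34 and Csf1r 0.039 for diet in p53KO, then C1qa 0.39 and C1qc 0.36 for diet averaged over genotypes. By Spearman's rho, the correlations that changed sign were Marco with C1qa at 0.10, Marco with C1qb at 0.15 and Marco with C1qc at 0.11. Without the 2 libraries farthest from the median, the correlations that changed sign were Timd4 with C1qa at -0.035, Timd4 with C1qb at -0.041, Timd4 with C1qc at -0.021, Cd5l with Marco at -0.24, Marco with C1qa at 0.10, Marco with C1qb at 0.10 and Marco with C1qc at 0.083. With each library left out in turn, the calls ran from 0 to 1 gene for genotype averaged over diets. For diet in Rosa26KO they ran from 93 to 509 genes and 0 to 1 member. For diet in p53KO they ran from 173 to 760 genes and 0 to 2 members. For diet averaged over genotypes they ran from 1012 to 1883 genes and 0 to 1 member. For genotype on control diet these fits gave log2 fold changes of -0.12 to 1.11 for Clec4f, -0.071 to 1.40 for Vsig4, -0.23 to 0.40 for Timd4 and -0.031 to 1.01 for C1qc. For genotype on HFD these fits gave log2 fold changes of -1.04 to 0.00052 for Timd4 and -0.44 to 0.68 for Marco. For diet in Rosa26KO these fits gave log2 fold changes of -0.030 to 0.46 for Vsig4, -0.78 to 0.36 for Timd4 and -1.31 to 0.072 for Marco. For diet in p53KO these fits gave log2 fold changes of -0.33 to 0.16 for Marco, -0.82 to 0.33 for C1qa, -0.70 to 0.39 for C1qb, -0.72 to 0.33 for C1qc, -0.50 to 0.34 for Adgre1 and -0.95 to 0.039 for Csf1r. For diet averaged over genotypes these fits gave log2 fold changes of -0.55 to 0.00029 for Clec4f, -0.11 to 0.47 for C1qa, -0.0082 to 0.54 for C1qb and -0.087 to 0.44 for C1qc. For the difference between diet effects these fits gave log2 fold changes of -1.09 to 0.049 for Timd4 and -0.16 to 1.22 for Marco. The log2 ratio difference ran from -0.52 to 0.23 for Timd4 to Clec4f and genotype on control diet, -0.020 to 0.071 for C1qa to C1qb and genotype on control diet and -0.38 to 0.37 for Timd4 to Clec4f and diet in p53KO.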
